A study of Mus musculus with 2 samples.

Results

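The genes described here are 10 brakes on MAP kinase signaling that Th17 cells can express: the MAP kinase phosphatases *Dusp1*, *Dusp2*, *Dusp4*, *Dusp5*, *Dusp6*, *Dusp10* and *Dusp16*, and the inhibitors *Spry1*, *Spry2* and *Spred1*. They were chosen by gene symbol, with earlier results of these data known but not by a threshold on their values. They are part of their families, and 10 of the 23282 gene rows in the deposited count tables. In the library of RV-Cre-transduced Th17 cells, *Dusp6* was 4.34-fold lower than in the control library and *Dusp2* was 2.15-fold lower, whereas *Spry2* was 3.10-fold higher. The other 6 genes with reads differed by less than 2-fold, and *Dusp5* was listed at 0 reads in both libraries.

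The ERK pathway carries signals from the T cell receptor, costimulatory and cytokine receptors through Ras, RAF and MEK kinases to ERK, which enters the nucleus and switches on early response genes. Among these genes are its own brakes. DUSP proteins of this family remove phosphate from the threonine and the tyrosine that activate ERK, JNK or p38, while Sprouty and Spred proteins act further up, between the receptors and RAF. Because transcription of several of these brakes, above all *Dusp6*, follows ERK activity, their transcripts are often read as a record of it. ERK activity itself was not measured in the data analysed here.

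To identify genes altered by loss of focal adhesion kinase (FAK), the study took naïve CD4 T cells from spleens of young adult female *Fak* fl/fl mice, in which part of the *Fak* gene is flanked by sites for Cre recombinase. They were activated through CD3ε (antibody on the plate, 10 μg/ml) and CD28 (antibody in solution, 5 μg/ml), transduced with the control retrovirus (control) or with a retrovirus carrying Cre (RV-Cre), and cultured for 3 days with IL-6 (50 ng/ml), TGFβ1 (1 ng/ml), TNFα (1 ng/ml), IL-1β (2 ng/ml), anti-IFNγ (5 μg/ml) and anti-IL-4 (5 μg/ml). GFP+ cells, which carry a retrovirus, were sorted, and 500 ng of total RNA was made into a 3′ sequencing library, with 1 library per condition. Both groups therefore share the floxed alleles, the activation, the transduction and the cytokines, while effects of Cre itself and of *Fak* deletion cannot be told apart.

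Reads counted on genes numbered 13799264 for control cells and 12305010 for RV-Cre cells. Values per library are given as reads and as CPM (reads scaled to a library total of 1000000). Ratios are RV-Cre over control after TMM scaling, log2 ratios have 1 added to each normalized count, and a gene was counted as changed at 2-fold or more if its log2 value reached 4 in the control or the RV-Cre library. Since each condition had a single library, replicate error is unknown and the conditions could not be tested against each other. Intervals are exact 95% intervals on the reads and cover counting error only. *Ptk2*, the symbol under which *Fak* is listed, had 110 reads in control cells and 31 in RV-Cre cells, for a ratio of 0.318 (95% interval 0.206 to 0.477). Reads from outside the deleted part of the gene count here as well. The ribosomal RNA gene *Rn45s* took 85000 CPM of the control library and 146008 CPM of the RV-Cre library, and leaving it out of the totals moved no gene of the 10 across the 2-fold threshold.

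The libraries held the transcripts of CD4 T cells. All 8 CD4 T cell markers (*Cd3d*, *Cd3e*, *Cd3g*, *Cd4*, *Cd2*, *Cd5*, *Cd28* and *Lck*) had reads, with a summed level of 1742 CPM in control and 2394 CPM in RV-Cre cells. The 6 Th17 markers summed to 157 CPM and 57.6 CPM, and the 7 markers of naïve T cells to 795 CPM and 1784 CPM. Markers of other cell types were also higher in the RV-Cre library, from 69.7 to 122 CPM for the 6 CD8 T and NK cell genes (2 of 4 past the minimum at least 2-fold higher), from 3.04 to 8.78 CPM for the 5 B cell genes (3 of 4) and from 12.4 to 25.2 CPM for the 8 myeloid genes (2 of 6, with 1 lower). Of these defining genes, *Pax5* had 0 reads in both libraries, *Ncr1* and *Adgre1* had 0 reads in the control library and *Klrb1c* had 0 reads in the RV-Cre library. The part of these cells in the values below was not tested, and in bulk RNA fewer cells of a type and less RNA per cell cannot be told apart.

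*Dusp6* encodes a cytoplasmic phosphatase that is selective for ERK and holds it outside the nucleus. It lies on the plus strand of chromosome 10 (chr10:99263231-99267489, GRCm38). *Dusp6* had 769 reads in control cells (55.7 CPM, 95% interval 51.9 to 59.8) and 157 reads in RV-Cre cells (12.8 CPM, 95% interval 10.8 to 14.9). The intervals are far apart. The ratio was 0.230 (95% interval 0.193 to 0.274), a log2 ratio of -2.11, and 335 of the 12112 genes past the expression minimum, or 2.77%, had a log2 ratio as low or lower. Among the 1915 genes whose mean log2 value lay within 0.5 of that of *Dusp6*, 9.71% were at least 2-fold lower. RefSeq lists a further gene, *Gm34921*, that overlaps *Dusp6*. No source used here says whether counting was by strand, so reads of *Dusp6*, *Dusp5*, *Dusp16* and *Spry1* cannot be told apart from those of genes that overlap them.

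The 250 bases before the *Dusp6* start site are shown because this gene differed most, and those of *Dusp2*, *Spry2*, *Dusp1* and *Dusp5* because they stand for the other gene that was 2-fold lower, the gene that was 2-fold higher, a gene with nearly equal values and the gene without reads. Sequences are from RefSeq (GRCm38.p6), which gave a window for 9 of the 10 genes (not for *Dusp4*), and run 5′ to 3′ on the gene's own strand. They were searched on both strands for 6 motifs: the cAMP response element (CRE, TGACGTCA), the AP-1 site (TGANTCA), an ETS site (CCGGAA), the E-box (CACGTG), the CArG box bound by serum response factor and the κB site bound by NF-κB, and matches are in capitals.
Dusp6, chr10:99262981-99263230, plus strand: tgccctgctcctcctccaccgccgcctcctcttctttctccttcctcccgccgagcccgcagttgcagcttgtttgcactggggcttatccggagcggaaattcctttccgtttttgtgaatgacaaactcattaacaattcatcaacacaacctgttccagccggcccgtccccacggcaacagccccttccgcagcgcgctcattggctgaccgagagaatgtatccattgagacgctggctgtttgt
Dusp2, chr2:127335909-127336158, plus strand: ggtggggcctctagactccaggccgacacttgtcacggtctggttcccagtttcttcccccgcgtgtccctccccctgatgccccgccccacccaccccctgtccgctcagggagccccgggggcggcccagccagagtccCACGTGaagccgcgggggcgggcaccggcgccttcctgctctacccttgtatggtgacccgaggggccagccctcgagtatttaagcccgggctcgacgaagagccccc
Spry2, chr14:105896820-105897069, minus strand: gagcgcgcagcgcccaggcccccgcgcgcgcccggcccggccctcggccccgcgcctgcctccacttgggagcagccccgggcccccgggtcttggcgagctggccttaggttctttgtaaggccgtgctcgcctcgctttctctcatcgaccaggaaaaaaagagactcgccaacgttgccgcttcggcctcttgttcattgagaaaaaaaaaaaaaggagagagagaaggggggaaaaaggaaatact
Dusp1, chr17:26508473-26508722, minus strand: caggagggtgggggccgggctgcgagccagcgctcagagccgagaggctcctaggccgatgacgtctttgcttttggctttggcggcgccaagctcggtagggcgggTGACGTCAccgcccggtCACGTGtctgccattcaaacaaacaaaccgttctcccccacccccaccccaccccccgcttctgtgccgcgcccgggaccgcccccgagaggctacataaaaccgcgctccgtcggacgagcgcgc
Dusp5, chr19:53528895-53529144, plus strand: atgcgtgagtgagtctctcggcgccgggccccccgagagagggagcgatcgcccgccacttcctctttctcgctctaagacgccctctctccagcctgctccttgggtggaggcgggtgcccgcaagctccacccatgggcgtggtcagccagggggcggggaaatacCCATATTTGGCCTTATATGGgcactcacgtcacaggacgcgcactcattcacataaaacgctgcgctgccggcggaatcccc

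Matches were found in 3 of the 9 windows. *Dusp1* had a CRE from base 143 to base 136 before the start site, a motif that 1.55% of 32851 such windows of all genes hold, and an E-box from base 126 to base 121. *Dusp2* had an E-box from base 109 to base 104 (6.02% of windows). *Dusp5* had a pair of CArG boxes from base 82 to base 73 and from base 72 to base 63, which directly follow each other, and 1.47% of windows hold at least 1. No AP-1, ETS or κB match, motifs of 6.75%, 12.0% and 5.00% of windows, was found in the 9 windows. The windows of *Dusp6*, *Spry2*, *Dusp10*, *Dusp16*, *Spry1* and *Spred1* held none of the 6 motifs, which says only that these letters are not in these 250 bases. The *Dusp16* window (chr6:134792629-134792878, minus strand) lies inside the gene location given for it below and not next to its end. A match is a description of sequence and not a bound site.

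The nuclear phosphatases that are induced by T cell activation differed in their ratios. *Dusp2*, first known as a phosphatase of activated T cells (chr2:127336159-127338377), had 3586 reads in control cells (260 CPM, 95% interval 251 to 269) and 1481 reads in RV-Cre cells (120 CPM, 95% interval 114 to 127). The ratio was 0.466 (95% interval 0.438 to 0.495), a log2 ratio of -1.10, so that the whole interval lay just beyond 2-fold. With scaling to *Gapdh* the log2 ratio was -0.68, which ends the 2-fold call. Of the 870 genes within 0.5 of its mean log2 value, 5.40% were at least 2-fold lower.

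*Dusp4*, which acts on ERK and JNK in the nucleus (chr8:34807610-34819894), had 406 reads (29.4 CPM, 95% interval 26.6 to 32.4) and 214 reads (17.4 CPM, 95% interval 15.1 to 19.9) in the control and RV-Cre libraries. It was lower by less than the 2-fold threshold, with a ratio of 0.595 (95% interval 0.502 to 0.704). *Dusp1*, an early response gene whose product acts mainly on p38 and JNK (chr17:26505591-26508472), had 174 reads (12.6 CPM, 95% interval 10.8 to 14.6) and 162 reads (13.2 CPM, 95% interval 11.2 to 15.4). Its intervals overlap, and the ratio of 1.05 (95% interval 0.843 to 1.31) was not distinguishable from 1 at this depth. *Dusp5*, which encodes an ERK-selective nuclear phosphatase (chr19:53529145-53541809), was listed at 0 reads in both libraries, where 3 reads would correspond to 0.217 CPM (control) and 0.244 CPM (RV-Cre). The annotation used for counting is not given in the sources used here, so a listed 0 is not read as absence of the transcript. No ratio can be given for *Dusp5*, and GENCODE M21 places an antisense transcript over this gene.

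**Figure D1:**
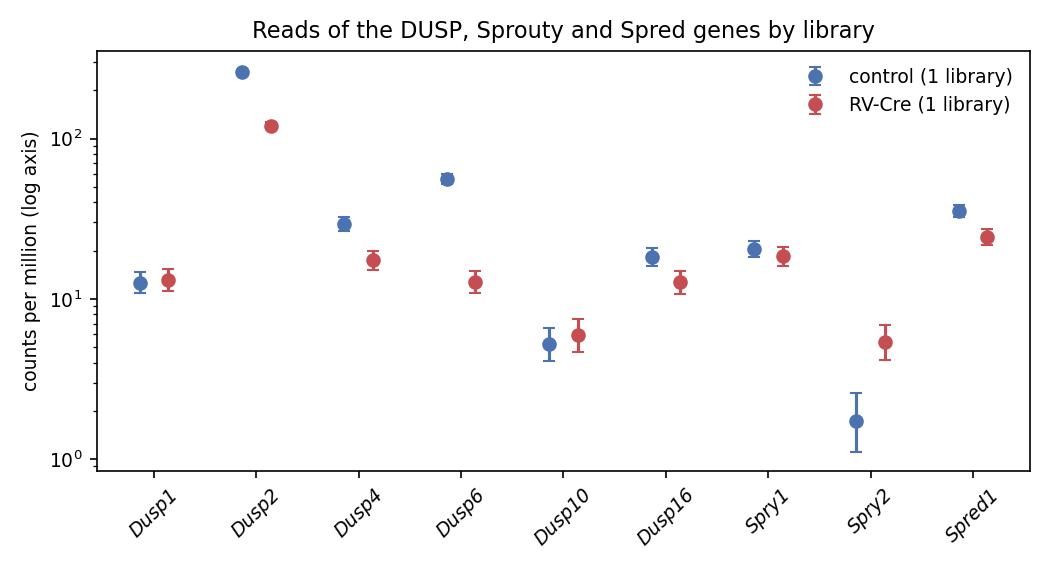
CPM (log axis) of the 9 genes with reads, in the control library and the RV-Cre library, with exact 95% Poisson intervals as bars. *Dusp6* falls from 55.7 to 12.8 CPM and *Dusp2* from 260 to 120 CPM, *Spry2* stands at 1.74 and 5.36 CPM, and the bars of *Dusp1*, *Dusp10* and *Spry1* overlap between the libraries.

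*Dusp10* and *Dusp16*, whose products act on JNK and p38 and not mainly on ERK, were both within 2-fold. *Dusp10* (chr1:184034381-184075636) had 72 reads in control cells (5.22 CPM, 95% interval 4.08 to 6.57) and 73 reads in RV-Cre cells (5.93 CPM, 95% interval 4.65 to 7.46). Its ratio was 1.14 (95% interval 0.815 to 1.61), with 1 inside the interval. *Dusp16* (chr6:134715468-134807063) had 252 reads (18.3 CPM, 95% interval 16.1 to 20.7) and 156 reads (12.7 CPM, 95% interval 10.8 to 14.8). Its ratio of 0.699 (95% interval 0.568 to 0.856) lay below 1 by more than counting error and within 2-fold. *Dusp16* overlaps an antisense gene, *Gm36328*, in the annotation, and RefSeq lists *1700055D16Rik* as a further overlapping gene.

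The 3 Sprouty and Spred genes went different ways. *Spry2*, an inhibitor between growth factor receptors and the RAF kinases (chr14:105891947-105896819), had 24 reads in control cells (1.74 CPM, 95% interval 1.11 to 2.59) and 66 reads in RV-Cre cells (5.36 CPM, 95% interval 4.15 to 6.82). These intervals do not overlap, and the ratio was 3.10 (95% interval 1.92 to 5.18), a log2 ratio of 1.59. It is the member with fewest reads among those detected, and genes of few reads differed more often: of the 954 genes within 0.5 of its mean log2 value, 24.7% were higher by 2-fold or more and 19.5% lower, against 5.27% and 9.71% of those near *Dusp6*. The part of this trend in the value of *Spry2* was not tested.

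*Spry1* (chr3:37639947-37644599, overlapped by *Gm42922*), the close relative of *Spry2*, had 282 reads (20.4 CPM, 95% interval 18.1 to 23.0) and 227 reads (18.4 CPM, 95% interval 16.1 to 21.0), and its ratio of 0.908 had 1 inside the interval (0.759 to 1.09). The log2 ratio of *Spry1* was -0.14 and changed sign, to 0.28, with scaling to *Gapdh*. *Spred1*, which brings the Ras inhibitor neurofibromin to the membrane (chr2:117121071-117182279), had 488 reads (35.4 CPM, 95% interval 32.3 to 38.6) and 300 reads (24.4 CPM, 95% interval 21.7 to 27.3). Its ratio was 0.694 (95% interval 0.599 to 0.803), beyond counting error and within 2-fold.

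**Figure D2:**
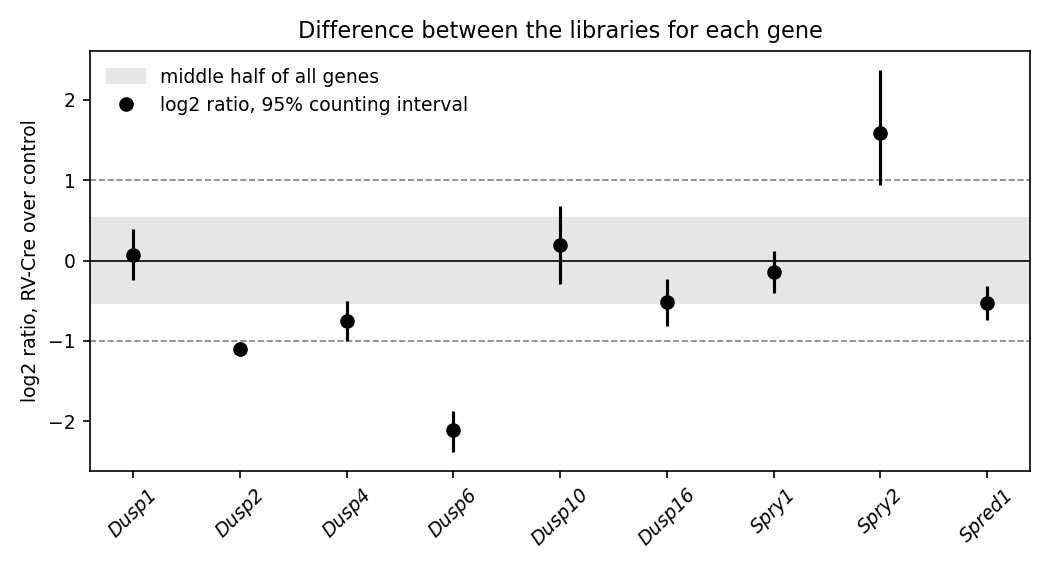
Log2 ratio of RV-Cre over control for the 9 genes with reads, with exact 95% counting intervals as bars, the 2-fold lines dashed and the middle 50% of all genes past the expression minimum shaded. *Dusp6* at -2.11 and *Dusp2* at -1.10 lie below the lower line, *Spry2* at 1.59 above the upper line, and the other 6 genes between the lines.

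Taken by the 2-fold rule, 2 of the 9 genes past the minimum were lower and 1 was higher, while 12.3% of all 12112 genes were lower and 14.2% higher. By the counting interval, 5 genes lay below a ratio of 1 and 1 above it, against 38.1% and 36.7% of all genes, which shows how little the interval alone sets apart in a pair of libraries. The median log2 ratio of the 9 genes was -0.51, and that of all genes past the minimum was -0.01. *Dusp5*, the member that did not pass, enters neither count. Counts of 1 or 2 genes among 9 set beside such shares say little of the group as a whole.

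A comparison of members within a library does not depend on how the libraries are scaled. For each *Dusp1* read there were 4.42 *Dusp6* reads in control cells and 0.969 in RV-Cre cells, an odds ratio of 0.220 (exact 95% interval 0.165 to 0.291). Against *Dusp2*, which was itself lower, the odds ratio of *Dusp6* was 0.494 (95% interval 0.409 to 0.594), and against *Dusp4* it was 0.388 (95% interval 0.303 to 0.495). These quotients restate the ratios above, where *Dusp6* was lowest among the detected members and *Dusp2* next lowest. It follows by arithmetic that *Dusp6* went down relative to each of the other 8, with the odds ratio closest to 1 against *Dusp2*. Of the 36 pairs of detected members, 29 had an odds ratio whose interval excluded 1. The 7 pairs that did not were formed by *Dusp1*, *Dusp4*, *Dusp10*, *Dusp16*, *Spry1* and *Spred1*. The share over pairs of all genes was not computed, so the count is not read as a trait of these genes. Among single genes, the interval lay below 1 for 38.1% and above 1 for 36.7% of all genes.

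The make-up of the reads shifted accordingly. *Dusp6* gave 12.7% of all reads on the 10 genes in control cells (95% interval 11.9 to 13.6) and 5.54% in RV-Cre cells (95% interval 4.72 to 6.44). The share of *Dusp2* went from 59.2% to 52.2%, and that of *Dusp1* from 2.87% to 5.71%. These are shares of reads and not of transcripts. In sum the 10 genes had 6053 and 2836 reads (ratio 0.529, 95% interval 0.505 to 0.553), and without *Dusp2* 2467 and 1355 reads, a ratio of 0.620 (95% interval 0.580 to 0.663). The latter sum still holds the 769 and 157 reads of *Dusp6*, and a sum without both genes was not taken.

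Of the 23 other DUSP, Sprouty and Spred genes listed, 13 passed the expression minimum, of which 3 were at least 2-fold lower and 1 higher, with a median log2 ratio of -0.01. Beside this list and those below stand the shares over all genes past the minimum, 12.3% lower and 14.2% higher by 2-fold. *Spred2*, *Dusp9* and *Dusp8* passed the minimum only through the library in which their level was higher, so their calls lean on that library. *Spred2*, a relative of *Spred1*, had 32 and 9 reads (ratio 0.317, 95% interval 0.133 to 0.680). *Dusp14*, a small phosphatase that dampens T cell receptor signaling, had 233 and 80 reads (ratio 0.387, 95% interval 0.297 to 0.502). *Dusp9*, named after its value was seen, had 28 and 10 reads (ratio 0.403, 95% interval 0.175 to 0.855), and *Dusp8*, the gene that was higher, had 7 and 19 reads (ratio 3.06, 95% interval 1.23 to 8.62). *Spry3*, *Spry4*, *Dusp13*, *Dusp18*, *Dusp21*, *Dusp26* and *Dusp27* were listed at 0 reads in both libraries, with the same limit as for *Dusp5*.

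In the cascade that leads to ERK, 16 of 17 listed genes passed the minimum, 2 were at least 2-fold lower and 1 was higher, and their median log2 ratio was 0.11. *Map2k1*, which encodes a MEK kinase that phosphorylates ERK, had 661 and 261 reads (ratio 0.446, 95% interval 0.385 to 0.515). With scaling to *Gapdh*, 0 genes of the cascade were at least 2-fold lower. *Gab2*, an adaptor, was the 1 gene at least 2-fold higher, from 5 to 19 reads.

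**Figure D3:**
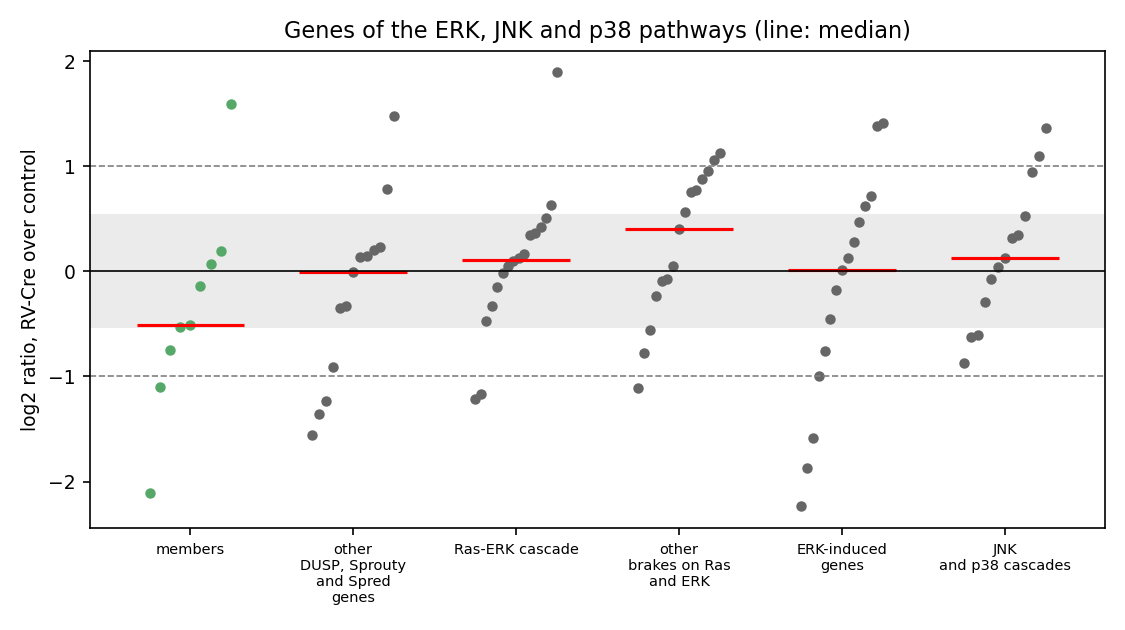
Log2 ratio of RV-Cre over control for every gene past the expression minimum in the set of 10 genes (labelled members, 9 points) and in 5 lists of related genes, with the median as a red line, the 2-fold lines dashed and the middle 50% of all genes shaded. The medians are -0.51 for the members, -0.01 for the other DUSP, Sprouty and Spred genes, 0.11 for the Ras-ERK cascade, 0.40 for the other brakes, 0.01 for ERK-induced genes and 0.13 for the JNK and p38 cascades.

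Other brakes on Ras and ERK had a median log2 ratio of 0.40, above the -0.01 of all genes, and all 15 listed genes passed the minimum. *Dok2*, an adaptor that recruits a Ras inhibitor, had 206 and 400 reads (ratio 2.19, 95% interval 1.85 to 2.61), and *Rasa3*, which switches off small GTPases of the Ras family, had 965 and 1786 reads (ratio 2.09, 95% interval 1.93 to 2.26). These were the 2 genes at least 2-fold higher. *Ptpn7*, a tyrosine phosphatase of blood cells that acts on ERK, was the 1 gene at least 2-fold lower, with 1509 and 617 reads (ratio 0.461, 95% interval 0.419 to 0.507). With scaling to *Gapdh* its call ends as well.

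Among 17 genes that ERK is known to induce outside this family, 15 passed the minimum, 3 were at least 2-fold lower and 2 higher, and the median log2 ratio was 0.01. *Myc*, a driver of cell growth, had 1678 and 315 reads (ratio 0.212, 95% interval 0.187 to 0.239). *Fosl1*, a Fos family factor that accumulates under lasting ERK activity, had 172 and 41 reads (ratio 0.269, 95% interval 0.186 to 0.380). *Etv5*, an ETS factor and named after its value was seen, had 53 and 15 reads (ratio 0.319, 95% interval 0.167 to 0.575). In the other direction, *Ccnd1*, a cyclin of the early cell cycle, had 27 and 65 reads (ratio 2.72, 95% interval 1.71 to 4.43), and *Ier3*, an early response gene, had 445 and 1031 reads (ratio 2.61, 95% interval 2.34 to 2.93). *Egr1*, an immediate early gene named after its value was seen, had 1237 and 1104 reads and a log2 ratio of 0.01. Genes of this list were thus lower, higher and nearly equal, and several of them answer to other pathways besides ERK.

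In the JNK and p38 cascades, the pathways on which *Dusp10* and *Dusp16* act, 13 of 16 genes passed the minimum, with 2 at least 2-fold higher, 0 lower and a median log2 ratio of 0.13. *Map2k6*, a kinase that activates p38, had 9 and 22 reads (ratio 2.76, 95% interval 1.22 to 6.81). *Mapk11*, a p38 kinase, had 205 and 390 reads (ratio 2.15, 95% interval 1.81 to 2.55).

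**Figure D4:**
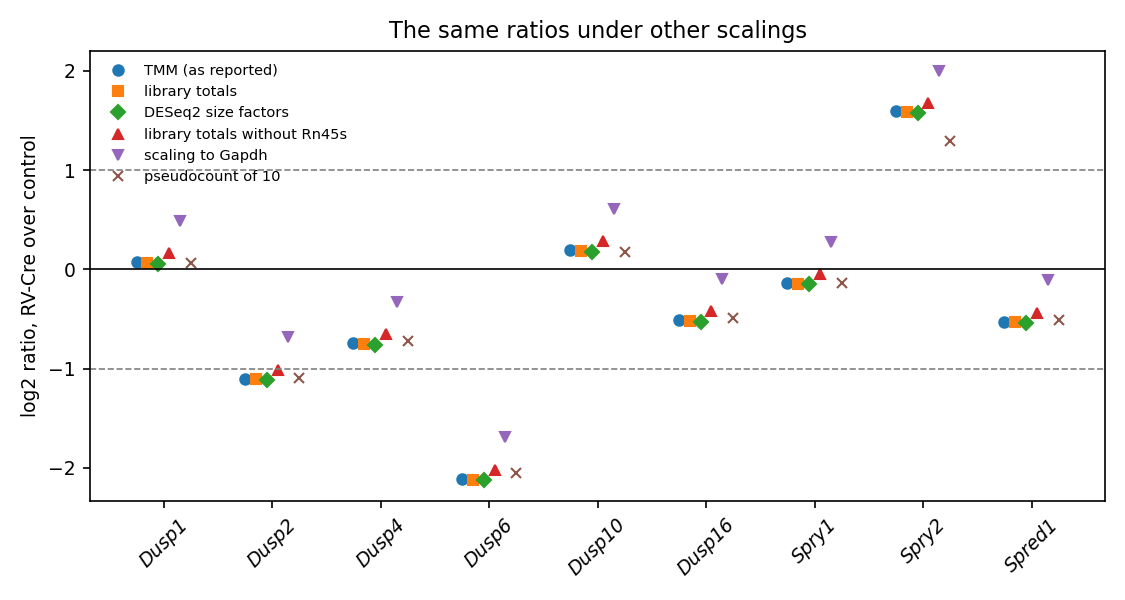
Log2 ratio of RV-Cre over control for the 9 genes with reads under TMM scaling and 5 other settings (library totals, DESeq2 size factors, library totals without *Rn45s*, scaling to *Gapdh* and a pseudocount of 10), with the 2-fold lines dashed. *Dusp6* ranges from -2.13 to -1.69 and *Spry2* from 1.30 to 2.00, always beyond the lines, while *Dusp2* ranges from -1.11 to -0.68 and crosses its line with *Gapdh*.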

How the data were processed

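Gene expression of GFP+ Th17 cells was compared between 1 control and 1 RV-Cre library. The authors deposited raw counts, whole numbers of reads per gene symbol from a QuantSeq 3′ kit, without normalization. The submitters' processing notes name bcl2fastq 2.20.0.422, Bowtie2, bedtools and the build mm10. The counting rule and read filters are not given in the sources used here. One label calls the control WT, and its title, which names *Fak* fl/fl cells with control retrovirus, was followed.

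Counts of all 23282 rows were scaled by TMM (edgeR 4.0.16, R 4.3.3) (size factors 1.06 for control, 0.941 for RV-Cre) and put on the scale log2(normalized count + 1). The minimum was a log2 value of 4 (15 normalized reads) in at least 1 library. Clopper-Pearson intervals of ratios, Poisson intervals of counts and conditional intervals of odds ratios, all 95% and exact, came from scipy 1.17.1. The script was tested on simulated data. Reads carry no molecular identifiers, and both the intervals and the 3-read limit used for absent reads describe counting error alone.

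The members and lists were chosen with earlier results of these data known. All members were named, with *Ptk2* and, per pathway list, the 2 genes most changed in each direction among those changed 2-fold. Others are marked as named after their values were seen, and some genes that the rule names are not reported here. Of the 79 rows that share a symbol with another row, none is listed. Locations are from RefSeq GRCm38.p6, the same build as mm10. The alternatives were 4 other scalings (library totals, DESeq2 1.42.0 size factors, library totals without *Rn45s* and *Gapdh*), no minimum or one of 6, a pseudocount of 10 and thresholds of 1.5 and 3.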

Additional observations from a re-analysis of the deposited data

How the results depend on the processing

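No paired analysis was possible because neither condition had a second library, and for the same reason no library could be left out. No called log2 ratio of the 10 genes changed sign under the 5 alternatives that recompute it (4 scalings and the pseudocount). Over all 9 alternatives, 159 of 213 values stayed near the reported ones. For a gene's log2 ratio this meant within its counting interval, and for counts within 1.5 times. A median had to lie between the median lower and median upper interval ends of its genes, which is not a counting interval of the median. The causes of the shifts were not tested, except that scaling to *Gapdh*, which was itself lower in the RV-Cre library (ratio 0.748), raises all ratios together and lifts the median log2 ratio of all genes from -0.01 to 0.43.

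With scaling to *Gapdh* the log2 ratios were 0.49 for *Dusp1*, -0.68 for *Dusp2*, -0.33 for *Dusp4*, -1.69 for *Dusp6*, -0.10 for *Dusp16*, 0.28 for *Spry1* and -0.11 for *Spred1*, the median of the members was -0.10, and 1 member was at least 2-fold lower. With library totals without *Rn45s*, *Dusp2* was at -1.01. At a threshold of 3-fold, 1 member was lower.

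The list medians with *Gapdh* were 0.41 for the other DUSP, Sprouty and Spred genes, 0.53 for the Ras-ERK cascade, 0.82 for the other brakes, 0.43 for ERK-induced genes and 0.55 for the JNK and p38 cascades. The counts of the other DUSP, Sprouty and Spred genes were 2 higher and 1 lower with *Gapdh*, 3 higher with no minimum, 0 higher and 1 lower with a minimum of 6, 0 higher with a pseudocount of 10, 2 higher at 1.5-fold, and 0 higher and 0 lower at 3-fold. In the Ras-ERK cascade they were 2 higher and 0 lower with *Gapdh*, 2 higher with no minimum, 0 higher with a minimum of 6, 2 higher at 1.5-fold and 0 lower at 3-fold. For the other brakes they were 6 higher and 0 lower with *Gapdh*, 6 higher and 2 lower at 1.5-fold, and 0 higher and 0 lower at 3-fold. For ERK-induced genes they were 4 higher with *Gapdh*, 4 higher and 5 lower at 1.5-fold and 0 higher at 3-fold. For the JNK and p38 cascades they were 1 higher with a minimum of 6 or a pseudocount of 10, 0 higher at 3-fold and 3 lower at 1.5-fold.

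Over all genes, the 1720 higher and 1491 lower genes became 2960 and 780 with *Gapdh* (79.1% higher in place of 53.6%), 3265 and 2441 with no minimum, 734 and 1067 with a minimum of 6 (40.8% higher, so that lower genes were then the more numerous), 2847 and 2777 at 1.5-fold, and 1008 and 669 at 3-fold. Depth limits *Spry2*, *Dusp10* and the listed genes under about 30 reads most, since their intervals are widest.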
